A study of Mus musculus with 3 samples.

Results

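The genes described here encode the proteins of the mitochondrial ribosome and the machinery that carries proteins into mitochondria. They are the genes with a value on all 3 arrays whose symbol begins with Mrpl or Mrps (mitochondrial ribosomal proteins of the large and the small subunit), Timm or Tomm (translocases of the inner and the outer mitochondrial membrane), each followed by a digit, or with Immp (inner mitochondrial membrane peptidase). The rule used names only, no measured value. It found 35 of the 3462 genes tested, of which 25 belong to the ribosome (13 large-subunit and 12 small-subunit symbols) and 10 to import. The array carried spots for 40 such genes, and the other 5 lacked a value on at least 1 array. With a value on T1 alone were Mrpl11, Mrpl19 and Mrpl57. Timm21 had values on T1 and T2, and Mrpl41 had none.

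Each array compared bone marrow RNA of a castrated C57BL/6 mouse that received a testosterone pellet with that of a matched castrated mouse that received a placebo pellet. All mice, placebo mice included, had lost their gonads at the age of 7 weeks and were 17 weeks old at study. Treatment lasted 4 weeks, with a testosterone pellet of 12.5 mg made for 60 days of release. The 3 arrays, T1, T2 and T3, are 3 separate mouse pairs (n = 3 throughout), with testosterone in the red dye Cy5 on T1 and T3 and in the green dye Cy3 on T2. The labels call the tissue bone marrow, while the protocol extracts RNA from pulverized bone, so cells of bone and of adjoining tissue can contribute.

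Mitochondria make a small set of respiratory chain subunits on ribosomes of their own. The proteins of these ribosomes are encoded in the nucleus, translated in the cytosol and imported, as are nearly all other mitochondrial proteins. Import runs through the TOM complex of the outer membrane and then through the TIM23 complex for proteins with a cleavable presequence, or through small chaperones of the intermembrane space and the TIM22 complex for carrier proteins. Marrow is a proliferating tissue, and developing red cells depend on mitochondria for heme synthesis.

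Values are log ratios of the 2 dyes at a spot, read as log2, and a gene's value on an array is the mean of its spots there. Positive means higher with testosterone. This direction is likely but not settled, since its basis is that the study calls testosterone its experimental channel. The base of the logarithm is likewise inferred. The 3 arrays correlated positively over the tested genes (Pearson r = 0.43 for T1 with T2, 0.50 for T1 with T3 and 0.73 for T2 with T3, across genes, which are not independent replicates). The median of all 3462 genes was -0.071, so a value slightly below 0 is the ordinary case on these arrays. By limma with Benjamini-Hochberg adjustment 170 genes passed an adjusted p of 0.05, 58 higher and 112 lower (34.1% higher; with arrays centred on their medians the share was 42.0%, and with scaling as well 65.8%). Markers of B lymphocytes were far lower with testosterone: the 5 measured of 10 had array medians (T1, T2, T3) of -2.14, -2.24 and -1.65. The 3 measured of 10 erythroid markers had medians of -0.027, 0.46 and 0.35, the 2 of 10 neutrophil markers 0.68, 0.20 and -0.049, the 4 of 6 monocyte and macrophage markers 0.24, -0.017 and 0.13, the 2 of 4 megakaryocyte markers -0.30, -0.32 and -0.23, the 5 of 7 skeletal muscle markers -0.032, -0.82 and -0.45, and the 3 of 6 bone markers 0.42, -1.11 and -0.16. Their part in the results below was not tested, and a ratio cannot show the level of a marker. In such bulk tissue, fewer cells of a type and less RNA per cell cannot be told apart.

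None of the 35 genes passed the adjusted threshold by limma (0 of 35, against 4.91% of all genes tested), with eBayes robust or not. The members' changes were small and lay mostly on the lower side. Of the 35 means 31 were below 0 (88.6%), against 62.4% of all genes, and their median was -0.13. After median centring 24 of the 35 were below 0, against 50.2% of all genes. The lean to the lower side was lost with the sign of T2 turned, where 17 of the 35 were below 0, against 48.0% of all genes. Turning 1 of 3 arrays draws any mean that the arrays share towards 0, and with it 0 of the 3462 genes were called. Values below 0 on all 3 arrays were found for 18 members (51.4%), against 33.9% of all genes tested, and above 0 on all 3 arrays for Immp1l alone, against 18.1% of all genes. At an unadjusted p of 0.05, 5 members were lower (14.3%), against 16.1% of all genes tested, and 0 were higher, against 416 of the 3462 genes (12%). The share of lower members is near the background, and that of higher members is under it. The means ran from -0.31 to 0.22, while the 5th and 95th percentiles of all genes were -0.43 and 0.42.

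Within the limma fit, the precision of 3 arrays bounds these changes. The 95% interval of a member, from the limma fit and not adjusted for the number of genes, reached a median of 0.24 to either side of its mean. Its lowest bound over the members was -0.59, for Timm44, which is 1.51-fold lower, and its highest was 0.45, for Immp1l, which is 1.36-fold higher. No member's interval from this fit therefore reached a doubling or a halving in either direction. The fit draws each gene's spread towards that of all genes. For Mrps10 the standard error was 0.19 in the fit and 0.32 from its own values, and for Mrpl33 it was 0.096 and 0.017. The bound therefore holds for this fit of gene averages, not for intervals from a member's own 3 values and not for single spots. At Immp1l 1 of its 2 spots had a mean of 0.60, above the highest bound of 0.45.

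**Figure D1:**
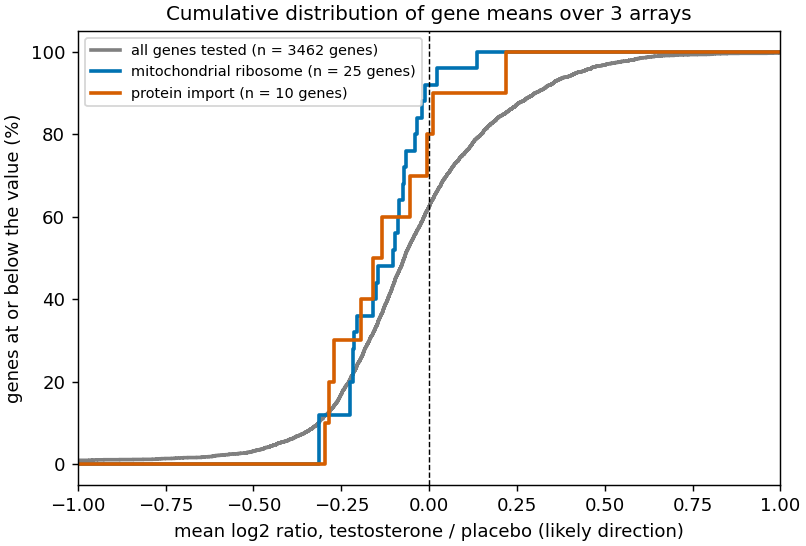
Cumulative distribution of the mean log2 ratio over 3 arrays (x axis) as a percentage of genes (y axis) for all 3462 genes tested, the 25 mitochondrial ribosome genes and the 10 import genes. At 0 the ribosome curve stands at 92.0% and the import curve at 80.0%, above the 62.4% of all genes, and both member curves stay within -0.31 and 0.22.

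Among the 13 large-subunit genes, 12 had a mean below 0 and 6 were below 0 on all arrays, with 0 called. Mrpl37, a subunit with no bacterial counterpart, had -0.34 on T1, -0.42 on T2 and -0.18 on T3. It was lower in every pair, with a mean of -0.31 ± 0.12 (SD, n = 3; 1.24-fold lower, unadjusted p = 0.0158, adjusted p = 0.105 by limma). Mrpl23, a homologue of the bacterial protein at the exit of the peptide tunnel, had -0.15, -0.42 and -0.38 on the same arrays. Its mean was -0.31 ± 0.14 (1.24-fold lower, adjusted p = 0.111 by limma), with T1 nearest to 0. Without T1 it was -0.40 and passed the threshold (adjusted p = 0.0404 by limma), while without the other arrays in turn its adjusted p was at most 0.415. These were the lowest means of the subunit, and 10.1% of all genes lay lower than Mrpl23.

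Mrpl16, whose bacterial relative lies near the catalytic centre for peptide bond formation, was the most even of the large-subunit genes that lay below 0 in every pair. It had -0.23 on T1, -0.25 on T2 and -0.16 on T3 (mean -0.21 ± 0.044, adjusted p = 0.194 by limma). Mrpl30 had -0.16, -0.38 and -0.11 (mean -0.22 ± 0.14). Mrpl3, an ancient protein of the subunit's core, had -0.20, -0.031 and -0.066 (mean -0.098 ± 0.087), and Mrpl53 was also below 0 in every pair, at -0.075 ± 0.075. For Mrpl24 the low mean of -0.16 ± 0.32 came from T2, which stood at -0.53 while T1 and T3 were at 0.033 and 0.0090. Mrpl42 had the same shape, with -0.32 on T2 against 0.12 and 0.092, and a mean of -0.035 ± 0.24. Mrpl35 was below 0 on T1 and T2 (-0.24 and -0.23) and above it on T3 (0.16). Mrpl40 averaged -0.085 ± 0.076, Mrpl55 -0.039 ± 0.12 and Mrpl33 -0.012 ± 0.029. The highest mean of the subunit was that of Mrpl20, a homologue of a bacterial assembly protein of the large subunit, at 0.023 ± 0.25, where T1 (-0.26) lay opposite to T2 and T3 (0.18 and 0.15).

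Of the 12 genes named for the small subunit 11 had a mean below 0, 6 were below 0 on all arrays, and 0 were called. Mrps27, a protein of the pentatricopeptide repeat family, had -0.44 on T1, -0.18 on T2 and -0.32 on T3, lower in every pair (mean -0.31 ± 0.13, 1.24-fold lower, unadjusted p = 0.0164, adjusted p = 0.108 by limma). Mrps25, which bacteria lack, had -0.14, -0.34 and -0.20 (mean -0.23 ± 0.10, adjusted p = 0.186 by limma). Mrps35, another mitochondrial addition, had -0.17, -0.40 and -0.11 (mean -0.22 ± 0.15). Mrps21, a homologue of a bacterial small-subunit protein, had -0.15, -0.23 and -0.28 (mean -0.22 ± 0.065). These genes were below 0 in all pairs. At Mrps35 T2 stood apart, and without it the mean was -0.14. Mrps16 and Mrps14 were also below 0 in every pair, at -0.15 ± 0.088 and -0.15 ± 0.071.

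The other small-subunit genes differed in sign between pairs. Mrps18b, a mitochondrial relative of bacterial S18, had -0.20, -0.45 and 0.036 on T1, T2 and T3, and its close relative Mrps18c had 0.12, -0.23 and -0.11. Mrps12, a protein of the decoding centre, was near 0 on T1 and T2 (0.013 and 0.026) and at -0.31 on T3. Mrps30, which carries a small-subunit symbol although the protein sits in the large subunit of mammals, had -0.33 on T1 and 0.065 and 0.063 on T2 and T3. Mrps10 varied most of all members, with 0.62 on T1 against -0.32 on T2 and -0.36 on T3, so that its mean of -0.020 ± 0.55 describes none of the pairs. Mrps7, a homologue of the bacterial protein that starts assembly of the small subunit's head, had the highest mean of the subunit at 0.14 ± 0.18 (adjusted p = 0.439 by limma). Its values on T1, T2 and T3 were 0.00, 0.067 and 0.34.

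**Figure D2:**
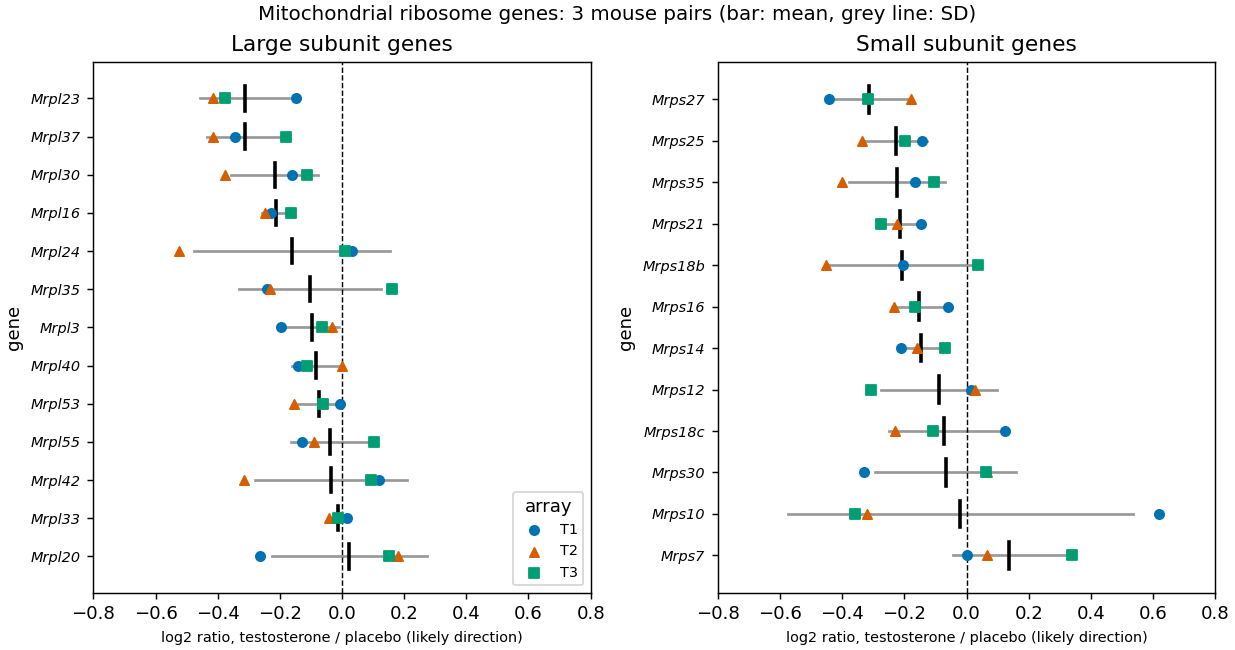
Log2 ratio (x axis) of each mitochondrial ribosome gene (y axis, ordered by mean) in the large subunit, left, and the small subunit, right; points are the 3 arrays, the black bar the mean and the grey line 1 SD to either side. Mrps10 spans from -0.36 on T3 to 0.62 on T1, whereas all points of Mrps27, Mrpl37 and Mrpl23 lie between -0.44 and -0.15.

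The median log ratio of the subunits was similar. For T1, T2 and T3 in turn it was -0.15, -0.23 and -0.062 for large-subunit genes, and -0.15, -0.23 and -0.14 for small-subunit genes. After median centring the large-subunit median was -0.028 and the small-subunit median -0.080, and without T2 the former was -0.056. Large minus small as reported was -0.0030, -0.0038 and 0.075 on the arrays, a mean of 0.023 ± 0.045, within the spread between arrays. Ribosomal proteins were also divided by descent. The 16 with a bacterial counterpart had a median of -0.10, with 14 means below 0 and 7 genes below 0 in every pair. The 9 that are particular to mitochondria had a median of -0.21, with all 9 means below 0 and 5 genes below 0 in every pair. On the arrays the medians were -0.14, -0.23 and -0.090 for the former and -0.17, -0.32 and -0.11 for the latter. Mrps18b stands with the latter, although it is a relative of bacterial S18. Counted with the former, a choice made after its value was seen, it leaves medians of -0.10 for 17 genes and -0.15 for 8. The difference was not tested.

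Of the 10 import genes 8 had a mean below 0, 6 were below 0 on all arrays, and 0 were called. In the outer membrane, the 3 small subunits of the TOM complex were below 0 in every pair. Tomm5 had -0.31 on T1, -0.31 on T2 and -0.19 on T3, a mean of -0.27 ± 0.072 (1.21-fold lower, unadjusted p = 0.0252, adjusted p = 0.127 by limma). Tomm6 had -0.27, -0.15 and -0.16 (mean -0.19 ± 0.066), and Tomm7 had -0.11, -0.25 and -0.037 (mean -0.13 ± 0.11). The receptors of the complex had mixed signs. Tomm20, which recognises presequences, had -0.20, 0.20 and -0.0080 (mean -0.0050 ± 0.20), and Tomm70a, which receives carrier proteins with their chaperones, had -0.079, 0.22 and -0.30 (mean -0.056 ± 0.26). Small subunits and receptors were not compared by a test.

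In the inner membrane, both measured genes of the TIM23 complex were below 0 in every pair. Timm17b, a paralogue of Timm17a in the core of the complex, had -0.29 on T1, -0.50 on T2 and -0.10 on T3. Its mean was the lowest of the import genes at -0.30 ± 0.20 (1.23-fold lower, unadjusted p = 0.0297, adjusted p = 0.138 by limma). Timm44, which tethers the import motor to the channel, had -0.052, -0.65 and -0.15 (mean -0.28 ± 0.32, adjusted p = 0.208 by limma), with T2 well below the others. Without T1 its mean was -0.40 and it passed (adjusted p = 0.0490 by limma), and without T2 it was -0.10 (adjusted p = 0.639). Of the small chaperones that escort carrier proteins across the intermembrane space, Timm10 had -0.15, -0.21 and -0.12 (mean -0.16 ± 0.044), and Timm8b had 0.055, -0.037 and 0.019 (mean 0.012 ± 0.046). Neither passed (adjusted p = 0.31 and 0.948 by limma).

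Immp1l, a catalytic subunit of the peptidase that trims sorting signals at the inner membrane, was the only member above 0 in every pair, with gene values of 0.14, 0.20 and 0.31 on T1, T2 and T3 (mean 0.22 ± 0.086, 1.16-fold higher, adjusted p = 0.195 by limma). This evenness hides spots of opposite sign, which come from different clone accessions. The higher spot had 0.49, 0.77 and 0.55 (mean 0.60 ± 0.15), and tested spot by spot it passed as higher (adjusted p = 0.0394 by limma, where 1.13% of 6039 spots were called higher). The lower spot had -0.21, -0.37 and 0.075 (mean -0.17 ± 0.22, adjusted p = 0.389). The gene's mean is therefore not a level that either spot showed.

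**Figure D3:**
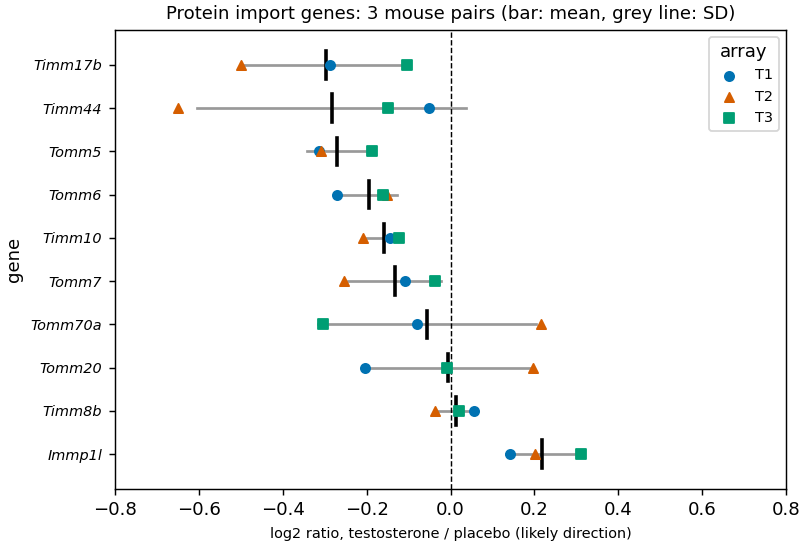
Log2 ratio (x axis) of the 10 import genes (y axis, ordered by mean); points are the 3 arrays, the black bar the mean and the grey line 1 SD to either side. Points of Timm17b, Timm44, Tomm5, Tomm6, Timm10 and Tomm7 lie below 0 on each array, those of Tomm70a and Tomm20 lie on both sides of it, and those of Immp1l above it.

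Repeated spots show how far a gene's value depends on the spot. On all 3 arrays 8 members had more than 1 spot. Over all named genes, 481 pairs of spots with the same clone accession differed on T1, T2 and T3 by medians of 0.074, 0.12 and 0.11, and 965 pairs of the same gene with different accessions by 0.13, 0.23 and 0.16. Mrpl30, Mrps16, Mrps21 and Mrps35 had spots with means of the same sign: Mrpl30 at -0.24 and -0.19, Mrps16 at -0.091 and -0.21, Mrps21 at -0.27 and -0.16, and Mrps35 at -0.19 and -0.26. The spots of Mrpl20 (-0.034 and 0.081) and the 3 spots of Mrpl55 (-0.063, -0.10 and 0.048) lay to both sides of 0. None of these spots passed by limma, with adjusted p from 0.135 to 0.886.

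Mrpl33, a homologue of a bacterial large-subunit protein, had 6 spots of a shared clone accession that fell into opposed patterns. At 4 of them T1 averaged 0.099, T2 -0.24 and T3 -0.039, and every T1 value was above 0 and every T2 value below it. At the other 2 spots T1 averaged -0.15, T2 0.36 and T3 0.044. The gene's mean of -0.012 ± 0.029 has a small SD because these patterns cancel on each array. The division into 4 and 2 spots was made after the values were seen, and its cause was not tested.

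**Figure D4:**
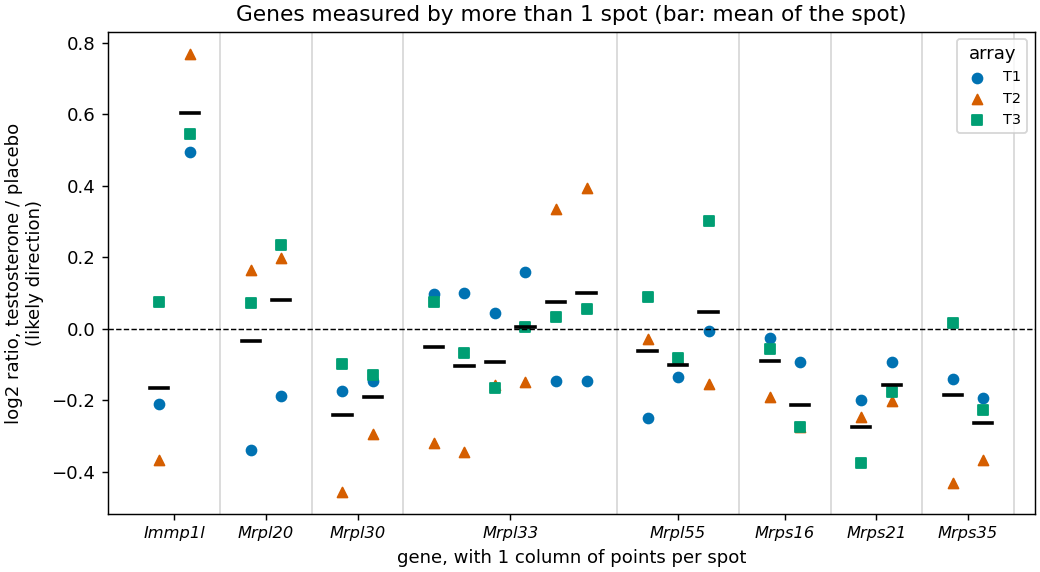
Log2 ratio (y axis) at each spot of the 8 members with more than 1 spot (x axis, 1 column of points per spot); points are the 3 arrays and the black bar is the spot's mean. The spots of Immp1l stand at means of -0.17 and 0.60, and at Mrpl33 T2 lies between -0.35 and -0.15 at 4 spots and at 0.34 and 0.39 at the other 2.

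The members as a whole shared little order between pairs. Across the 35 members the array values correlated with r = 0.018 for T1 with T2, 0.024 for T1 with T3 and 0.34 for T2 with T3, each below the value over all genes tested given above. The classes differed in the values that involve T1, while T2 with T3 was alike in r. For the 25 ribosome genes r was -0.13, -0.13 and 0.36 in the same order. These include Mrps10, which had 0.62 on T1 against -0.32 on T2 and -0.36 on T3. A gene so far apart can move r and its sign, and its part here was not tested. The rank correlations (Spearman) of the ribosome genes were -0.024, -0.02 and 0.33, so T1 shared next to no order with T2 or T3. For the 10 import genes r was 0.38, 0.62 and 0.34 (Spearman 0.42, 0.48 and 0.21), the highest being that of T1 with T3. The import values rest on few genes, and Immp1l among them averages spots of opposite sign. A narrow range such as that of the members can lower correlations, and its part here was not tested. The lowest value of a member fell on T2 for 18 members, on T1 for 13 and on T3 for 4. The shares of all genes were 44.0% for T2, 33.2% for T1 and 22.8% for T3. On T1 26 members were below 0, on T2 27 and on T3 25, so the members' share below 0 was alike in the pairs. Most genes lay below 0 on each single array as well: of the 3462 tested, 1932 for T1, 2187 for T2 and 2065 for T3. The member counts were not tested against these.

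The lists set beside the members for comparison are the cytosolic ribosome, oxidative phosphorylation and the proteasome. Cytosolic ribosomal proteins (44 genes) had array medians of -0.34, -0.068 and -0.038, with T1 far the lowest. The mitochondrial ribosome (25 genes) had -0.15, -0.23 and -0.11, with its lowest median on T2. All genes tested had -0.038, -0.12 and -0.055, so their median was lowest on T2 as well. Mitochondrial minus cytosolic gave 0.19, -0.16 and -0.068 in the 3 pairs (mean -0.013 ± 0.18), a difference that changed sign between pairs. The import genes had -0.13, -0.18 and -0.11, against -0.22, -0.20 and -0.065 for oxidative phosphorylation (51 genes) and -0.14, -0.28 and -0.13 for the proteasome (34 genes). Below 0 on all arrays were 12 of 25 mitochondrial ribosome genes, 6 of 10 import genes, 19 of 44 cytosolic ribosomal genes, 32 of 51 oxidative phosphorylation genes and 27 of 34 proteasome genes. These lists were compared by values only, and nothing here is particular to the mitochondrial ribosome or to import.

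**Figure D5:**
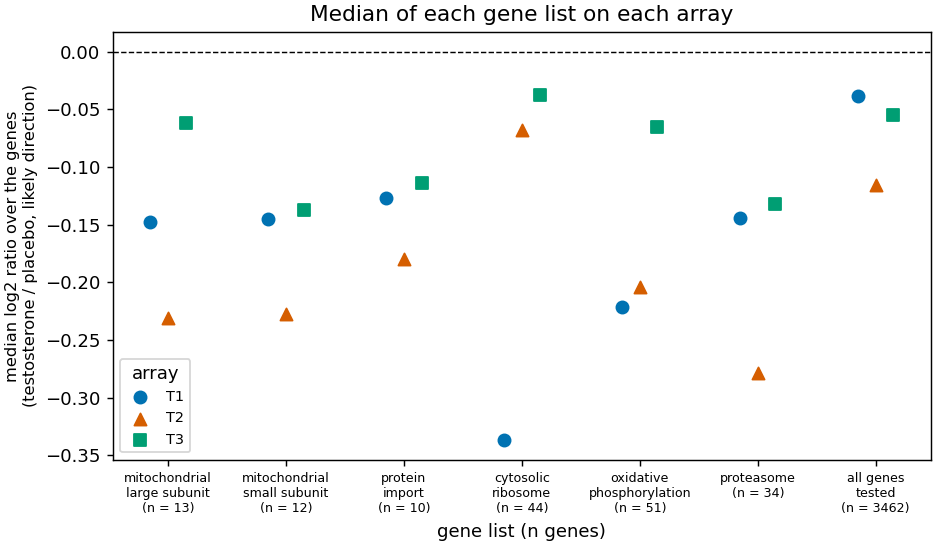
Median log2 ratio over the genes of each list (y axis) on each of the 3 arrays (points) for the member classes, the comparison lists and all genes tested (x axis, with the number of genes). On T1 the cytosolic ribosome lies at -0.34 and both mitochondrial subunits at -0.15, and on T2 the order is turned, at -0.068 against -0.23.

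Genes that work with the members were read from lists chosen for their roles. Of 87 listed genes 27 had values on all arrays, of which 1 was called lower and 0 higher. Their median was -0.093, with 17 means below 0 (63.0%). Over all genes tested 4.91% were called in either direction, 62.4% of means were below 0 and the median was -0.071. These lists together are therefore near the background. Among 4 measured genes of mitochondrial ribosome assembly, the RNA helicase Dhx30, which binds mitochondrial ribosome precursors and also has roles outside mitochondria, was lower in every pair. Its values were -0.44 on T1, -0.84 on T2 and -0.47 on T3 (mean -0.58 ± 0.22, adjusted p = 0.0444 by limma). It no longer passed when T2 was left out (-0.45, adjusted p = 0.216) or T3 was (-0.64, adjusted p = 0.255), after median centring (-0.51, adjusted p = 0.0535) and with the sign of T2 turned (-0.024). Fastkd2, an RNA-binding protein of the same list, had -0.20 ± 0.13 and did not pass.

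Among 9 measured factors of mitochondrial translation and gene expression, 0 were called, 5 had means below 0, and the 2 of smallest p were above 0. Mterf3, a regulator of mitochondrial transcription and of ribosome assembly, had 0.14 on T1, 0.73 on T2 and 0.55 on T3 (mean 0.47 ± 0.30, adjusted p = 0.0724 by limma). Without T1 it was 0.64 and passed (adjusted p = 0.00101 by limma), as it did with a dye term (0.53, adjusted p = 0.0488) and after centring and scaling (0.52, adjusted p = 0.0492). Without T2 it was 0.34 (adjusted p = 0.305) and without T3 0.43 (adjusted p = 0.334), and with the sign of T2 turned -0.013. Tsfm, the exchange factor of the mitochondrial elongation factor Tu, had 0.51, 0.37 and 0.20 (mean 0.36 ± 0.16, adjusted p = 0.0832 by limma). It passed after centring and scaling (0.42, adjusted p = 0.0461), and with an array left out its adjusted p was 0.145 to 0.279. Of 10 other genes of import, sorting and processing 0 were called, and the lowest p belonged to the chaperones Dnaja3 (-0.26 ± 0.17) and Grpel2 (-0.23 ± 0.062), the latter a nucleotide exchange factor of the import motor. Of the ribosomal proteins with other symbols, Chchd1 had -0.13 ± 0.19 and Dap3 0.028 ± 0.058. Of the proteases, Yme1l1 had -0.12 ± 0.14 and Clpx -0.11 ± 0.15, and none of these 4 genes passed.

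Promoters of nuclear genes for mitochondrial proteins often hold sites for ETS-family factors such as GABP and for NRF1. Windows of 300 bases, from 250 before to 50 after the start of the gene, were taken from RefSeq (build GRCm38.p6) and matched 33 of the 35 members. The letters CCGGAAG, an ETS core, searched on both strands, were found for 12 of 33 members (36.4%), against 21.8% of the 2841 tested genes with a window and 9.93% of all 27025 genes with a window. The string was chosen with results of these data known. Strings for NRF1 and YY1 were also searched, each in a longer and a shorter form. In the shorter form NRF1 (GCGCATG) was found for 2 of 33 members (6.06%), against 8.62% of the tested genes. YY1 (GATGGCG) was found for 5 of 33 (15.2%), against 8.2%. The counts of the longer form differed and are not reported. On the array values, the 12 members with the ETS letters had a median of -0.093, with 6 below 0 in every pair, and the 21 with a window and without the letters had -0.15, with 10 below 0 in every pair. A match is a description of the letters in this window, not of binding.

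The 100 bases before the gene start are printed, 5′ to 3′ on the strand of the gene and with the ETS letters in capitals, for the 5 members with an unadjusted p under 0.05, because these had the lowest p-values. Of these, Mrps27 holds the letters in this stretch.
Mrpl23, chr7:142532932-142533031, plus strand: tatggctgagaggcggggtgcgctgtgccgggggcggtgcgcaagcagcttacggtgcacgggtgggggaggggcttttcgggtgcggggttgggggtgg
Mrpl37, chr4:107066867-107066966, minus strand: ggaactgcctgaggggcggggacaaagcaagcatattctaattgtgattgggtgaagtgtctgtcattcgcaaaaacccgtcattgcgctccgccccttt
Mrps27, chr13:99344686-99344785, plus strand: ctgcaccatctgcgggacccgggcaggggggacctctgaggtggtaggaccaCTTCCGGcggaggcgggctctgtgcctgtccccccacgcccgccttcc
Timm17b, chrX:7899236-7899335, plus strand: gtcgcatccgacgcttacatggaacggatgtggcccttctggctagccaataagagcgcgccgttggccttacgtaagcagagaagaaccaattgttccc
Tomm5, chr4:45108114-45108213, minus strand: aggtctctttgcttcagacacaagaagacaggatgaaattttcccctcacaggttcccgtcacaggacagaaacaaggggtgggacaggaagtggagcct

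The same stretch follows for the members not shown above that were below 0 in every pair and hold the letters within these 100 bases. Only members with a single start in the table were taken. Chosen by sign and letters at once, they are not a comparison group. Members of mixed sign that hold the letters there, such as Timm8b and Tomm70a, are not shown. Mrpl53 holds the letters at 2 places.
Mrpl3, chr9:105053168-105053267, plus strand: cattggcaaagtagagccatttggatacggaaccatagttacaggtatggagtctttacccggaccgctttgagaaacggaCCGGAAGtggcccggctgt
Mrpl53, chr6:83109008-83109107, plus strand: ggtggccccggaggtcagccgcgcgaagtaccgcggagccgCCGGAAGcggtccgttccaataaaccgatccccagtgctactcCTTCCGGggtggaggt
Timm10, chr2:84826921-84827020, plus strand: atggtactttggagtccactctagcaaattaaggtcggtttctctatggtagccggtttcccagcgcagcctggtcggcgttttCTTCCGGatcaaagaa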

How the data were processed

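Spotted arrays with 2 dyes measured bone marrow RNA of 3 mouse pairs. What the authors deposited is a signed log ratio for every spot of an array, taken here as log2 from its range (with natural logs, folds would be larger). Numerator, scanner, background correction and scaling are not stated in these sources. Signal brightness was not analysed here, and precision is set by having 3 arrays. The sign of T2, the array of opposite dyes, was kept as deposited, since it correlated positively with the others.

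Symbols come from spots with 1 annotated gene, updated by Entrez ID through the RefSeq table of assembly GRCm38.p6 (7880 of 11552 spots). Spots measured on all 3 arrays were averaged per gene, giving 3462 genes. Each mean was tested against 0 by limma (version 3.58.1, lmFit then eBayes, R version 4.3.3). Tests were two-sided, and p-values were adjusted over all genes by Benjamini-Hochberg. The procedure was tested on simulated data. Folds and intervals were computed from this fit.

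Named were all import genes, the 6 of smallest p and the 2 highest and 2 lowest means of each subunit, genes with several spots, and the 2 of smallest p in each related list. The other members are given as well, so that all 35 have values. Ptcd2 and Gfm2 were named after their values were seen and were not followed through the alternatives. The members and lists were chosen with earlier results of these data known. Alternatives were the sign of T2, each array left out, a dye term, centring, scaling, missing values, the summary and choice of spots, tests per spot, robust eBayes and a threshold of 0.10.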

Additional observations from a re-analysis of the deposited data

How the results depend on the processing

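Each value is already a ratio within a mouse pair, so the test of the 3 arrays against 0 is the paired comparison. No further pairing term was added, and the 3 arrays form 1 group. The alternatives below were planned, and the cause of a shift was not tested. Called members numbered 0 as reported, 1 when each spot was tested (Immp1l), 0 to 2 when an array was left out (Mrpl23 and Timm44 without T1), and 0 under the other alternatives. All genes called by limma, 170 as reported, numbered 33 to 623 when an array was left out, 385 with a dye term, 100 after median centring, 310 after centring and scaling, 498 at a threshold of 0.10, and 0 with the sign of T2 turned, where 19 genes had an unadjusted p under 0.05. The small-subunit median of -0.15 ranged from -0.20 to -0.13 over the arrays left out, and was -0.080 after centring and -0.080 after centring and scaling. The import median of -0.15 became -0.076 and -0.072 under these, and the large-subunit median of -0.098 became -0.028 and -0.030. Without T2 the latter was -0.056.

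Turning T2 exchanges treatment and dye effect. It moved the medians to 0.015 (large subunit), 0.0009 (small subunit) and 0.0080 (import), and put 17 of 35 means below 0, against 48.0% of all genes. Signs then changed for Mrpl20 (-0.098), Mrpl24 (0.19), Mrpl30 (0.034), Mrpl33 (0.015), Mrpl35 (0.050), Mrpl42 (0.18), Mrpl53 (0.029), Mrpl55 (0.021), Mrps10 (0.19), Mrps16 (0.0032), Mrps18b (0.094), Mrps18c (0.081), Mrps35 (0.042), Timm17b (0.037), Timm44 (0.15), Tomm7 (0.036), Clpx (0.074), Dap3 (-0.025), Dnaja3 (0.042), Mterf3 (-0.013) and Yme1l1 (0.011). After median centring they changed for Mrpl33 (0.058), Mrpl42 (0.035), Mrpl55 (0.031), Mrps10 (0.050), Mrps30 (0.0027), Tomm20 (0.065) and Tomm70a (0.014). After centring and scaling they changed for Mrpl33 (0.057), Mrpl42 (0.063), Mrpl55 (0.037), Mrps10 (0.063), Mrps18c (0.0074) and Tomm20 (0.040). With a dye term they changed for Tomm20 (0.046), Tomm70a (0.012) and Timm8b (0.00). Leaving out an array gave ranges of -0.056 to 0.17 for Mrpl20, -0.26 to 0.021 for Mrpl24, -0.026 to 0.0029 for Mrpl33, -0.11 to 0.11 for Mrpl42, -0.11 to 0.0068 for Mrpl55, -0.34 to 0.15 for Mrps10, -0.15 to 0.020 for Mrps12, -0.17 to 0.0075 for Mrps18c, -0.13 to 0.064 for Mrps30, -0.0090 to 0.037 for Timm8b, -0.11 to 0.095 for Tomm20 and -0.19 to 0.068 for Tomm70a. Of the 35 members 14 kept their sign in all 10 alternatives that recompute gene means. At 4 members (Immp1l, Mrpl20, Mrpl33 and Mrpl55) a spot had the sign opposite to the gene's mean, which leaves 13 members with neither.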

Other observations

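Values outside the comparisons were few. On T1 alone, Mrpl11 had 0.16, Mrpl19 0.062 and Mrpl57 -0.14. Timm21, a subunit of the TIM23 complex, had -0.062 on T1 and 0.066 on T2. A further 9 spots were annotated with a gene of these families together with other genes, 4 of them with values on all arrays, and were assigned to no gene.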
